A study of Mus musculus with 15 samples.

Results

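Chemokines and chemokine receptors were described in spontaneous mouse mammary tumours. The members were the genes whose array name follows the Ccl, Cxcl, Ccr or Cxcr numbering, together with Xcl1, Cx3cl1, Cx3cr1 and Ackr1 to Ackr4. There were 57 such genes on 81 probes, and 49 of them, 32 ligands and 17 receptors, were measured among the 22342 genes tested. A gene counted as measured when a probe stood well above background on at least 7 of the 15 arrays.

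Every tumour came from a mouse carrying the MMTV-PyMT transgene, which drives the polyoma middle T oncogene in mammary epithelium, and every mouse was killed at 20 weeks of age. Wsh tumours (7 arrays) came from mice on the Wsh background, the usual name of the Kit W-sh allele, an inversion beside Kit that leaves adult mice without mast cells. B6 tumours (8 arrays) came from mice on the C57BL/6 background. The series concerns mast cells in breast cancer, but the lack of mast cells, the Kit allele itself and other strain differences cannot be told apart here. Whether several tumours came from 1 mouse is not stated in the labels, and p-values reflect only the spread among these arrays.

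Chemokines are small secreted proteins that steer cells along concentration gradients by binding receptors coupled to inhibitory G proteins. Inflammatory chemokines are made on demand by macrophages, stroma and epithelium and draw in monocytes, neutrophils, T cells and natural killer (NK) cells, whereas homeostatic ones place lymphocytes within tissue. Atypical receptors bind chemokines without that G protein signal and take them up or carry them. In mouse mammary tumours Ccl2 and its receptor Ccr2 are best known for recruiting monocytes that become tumour macrophages.

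The neutrophil-attracting Cxcl1, Cxcl2 and Cxcl3, which stand close together on chromosome 5, are shown first because their start sites share a binding motif of NF-kB, the factor that switches on many inflammatory chemokines. The sequences are the 120 bases before each RefSeq start on GRCm38.p6, with the motif, the half-site GGGAA directly followed by TTTCC, in capitals. It begins 71 bases before the start of Cxcl1, 97 before that of Cxcl2 and 73 before that of Cxcl3, at chr5:90891125-90891244, chr5:90903779-90903898 and chr5:90785981-90786100, all on the plus strand.
Cxcl1: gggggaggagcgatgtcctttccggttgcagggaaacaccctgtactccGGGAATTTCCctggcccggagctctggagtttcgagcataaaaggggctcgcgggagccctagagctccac
Cxcl2: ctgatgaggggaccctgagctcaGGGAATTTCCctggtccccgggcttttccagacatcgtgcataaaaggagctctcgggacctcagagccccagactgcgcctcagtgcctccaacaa
Cxcl3: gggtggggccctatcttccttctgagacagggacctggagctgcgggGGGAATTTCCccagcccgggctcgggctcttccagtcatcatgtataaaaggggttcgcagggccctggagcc

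The motif was searched on both strands in the 250 bases before the start. It was found in 4 of the 42 members with a RefSeq promoter, the fourth being Ccr3, against 0.0852% of all 32851 promoters. Cxcl1, Cxcl2 and Cxcl3 are neighbours shown for sharing these exact letters, so these shares do not test the family. Other spellings of an NF-kB site were not searched. An interferon-type motif, TTTC and TTTC with any 2 bases between, was found in Cxcl10, Ccl19 and Cxcl14, and in 2.98% of all promoters. For Cxcl10, a chemokine known to be induced by interferon, the 220 bases before its start are given on the minus strand, chr5:92348890-92349109, with this motif in capitals as read from the other strand.
Cxcl10: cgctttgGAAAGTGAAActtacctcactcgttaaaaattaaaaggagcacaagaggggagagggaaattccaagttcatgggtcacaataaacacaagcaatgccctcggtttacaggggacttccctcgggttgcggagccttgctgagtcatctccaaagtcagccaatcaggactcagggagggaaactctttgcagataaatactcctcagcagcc
The AP-1 motif TGACTCA was found in Ccl27a, Ccr3, Ccr4 and Cxcl10, where it begins 74 bases before the start, and in 4.46% of all promoters. The motifs do not overlap in Cxcl10. A match is a run of letters and not a measured binding site.

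Levels below are log2 of the processed spot signal minus the 75th percentile of that array, so a level of 0 is the signal that 75% of its spots do not exceed. Differences are Wsh minus B6 on the log2 scale, with their limma standard error (SE) and p-values adjusted by Benjamini-Hochberg over all genes. Between 58.8% and 70.8% of spots stood well above background on Wsh arrays, and between 55.7% and 73.4% on B6 arrays. Kit, which checks the labels, averaged 0.59 ± 0.52 in Wsh tumours and 3.24 ± 0.62 in B6 tumours (SD, n = 7 and 8), a difference of -2.65 with a limma adjusted p of 0.000208. The arrays lay on 2 slides, with 4 Wsh and 4 B6 arrays on slide 1, and 3 Wsh and 4 B6 arrays on slide 2.

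No chemokine or receptor passed the threshold of adjusted p 0.05 between Wsh and B6 tumours. limma called 0 of the 49 measured members, with a lowest adjusted p of 0.241, against 75 of all genes (0.336%). At an unadjusted p under 0.05 limma gave 8 members higher in Wsh tumours and 0 lower, 16.3% of the members, against 10.4% of all genes, 4.66% higher and 5.71% lower. These 8 were Ccl7, Ccl3, Ccr1, Cxcl1, Ccl4, Cxcr6, Ccl12 and Ccl2. The difference was above 0 in 35 of the 49 members (71.4%), against 48.2% of all genes, and the median member difference was 0.32, against -0.01 over all genes. With each array scaled on its median, the number of members above 0 was 31, the median member difference 0.23 and that of all genes -0.11. In none of the 49 members were the Wsh and B6 values fully apart, as they were in 0.358% of all genes.

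The count of 8 depended on single arrays. It was 4 without Wsh replicate 2 or B6 replicate 7, and 5 without Wsh replicate 3, 4 or 7 or B6 replicate 1, 3 or 8. Leaving out Wsh replicate 1 or 6 or B6 replicate 2, 5 or 6 gave 6 or 7. Without Wsh replicate 5 the count rose to 9, and without B6 replicate 4 to 10. With slide as a block it was 7, with 37 members above 0 and 0 called. It was 4 on slide 1 alone, 1 on slide 2 alone and 4 with each array scaled on its median.

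**Figure D1:**
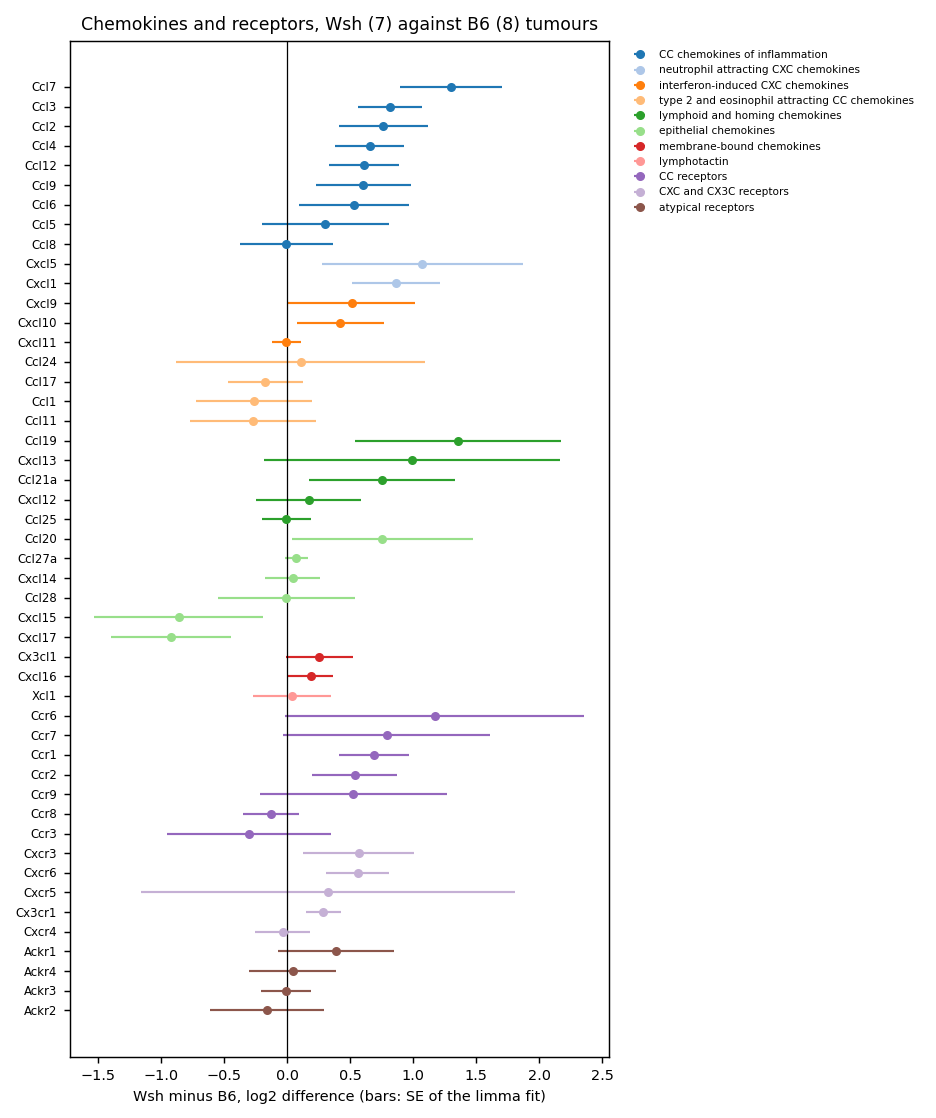
Difference in log2 level, Wsh minus B6 tumours, for measured members (points) with the SE of the limma fit (bars), grouped and coloured by role. Most points lie to the right of 0, the inflammatory CC chemokines among them, and none passed the threshold over all genes.

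The inflammatory CC chemokines attract monocytes, macrophages, T cells and NK cells. All 9 were measured, 8 had a difference above 0 and 5 an unadjusted limma p under 0.05, none passed over all genes, and the median difference was 0.61. These 5 were higher in Wsh tumours. Over all genes 48.2% lay above 0 and 4.66% were higher at an unadjusted limma p under 0.05. Ccl7, a monocyte attractant and ligand of Ccr2, lay between -0.77 and 1.69 with a median of -0.11 in Wsh tumours, and between -2.90 and -0.09 with a median of -1.14 in B6 tumours. All 7 Wsh tumours lay above the B6 median, 3 of them above every B6 tumour, and the groups overlapped. The difference was 1.30 ± 0.40 (SE), a ratio of 2.46, with a limma adjusted p of 0.241, which ran between 0.142 and 0.798 over the other settings. It was 1.88 on slide 1 and 0.58 on slide 2.

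Ccl3, which attracts cells through Ccr1 among other receptors, lay between -2.0 and -0.47 with a median of -1.78 in Wsh tumours, and between -3.34 and -1.72 with a median of -2.27 in B6 tumours. Again all 7 Wsh tumours lay above the B6 median and 3 above every B6 tumour. Its difference was 0.82 ± 0.26 (SE), a ratio of 1.76, with a limma adjusted p of 0.251. Ccl4, a related attractant of T cells and monocytes from a neighbouring gene on chromosome 11, lay between -1.98 and -0.26 with a median of -1.60 in Wsh tumours, and between -3.05 and -1.46 with a median of -2.0 in B6 tumours. All 7 Wsh tumours stood above the B6 median, 2 of them above all B6 tumours. The difference of Ccl4 was 0.65 ± 0.27 (SE; limma adjusted p = 0.419). Wsh replicate 2 was the highest tumour of the series for both Ccl3 and Ccl4, and B6 replicate 7 the lowest.

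Ccl2, the main ligand of Ccr2, lay between 0.01 and 2.43 with a median of 1.08 in Wsh tumours, and between -0.69 and 1.36 with a median of 0.28 in B6 tumours, a difference of 0.76 ± 0.35 (SE; limma adjusted p = 0.467). Ccl12, a mouse monocyte attractant close to Ccl2 in sequence, lay between -0.75 and 0.66 with a median of -0.19 in Wsh tumours, and between -1.68 and -0.07 with a median of -0.63 in B6 tumours, a difference of 0.61 ± 0.28 (SE; limma adjusted p = 0.459). In both, 5 of 7 Wsh tumours lay above the B6 median and 2 above every B6 tumour. The difference of Ccl2 was 1.10 on slide 1 and 0.28 on slide 2, and that of Ccl12 was 1.0 on slide 1 and 0.10 on slide 2. Wsh replicate 3 had the highest Ccl2 and Ccl7 of all 15 tumours.

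The other inflammatory CC chemokines gave smaller or less regular differences. Ccl9 averaged 1.44 ± 0.63 in Wsh tumours and 0.84 ± 0.88 in B6 tumours (SD, n = 7 and 8). Ccl6 averaged 2.68 ± 0.79 in Wsh tumours and 2.15 ± 0.99 in B6 tumours. Their differences were 1.04 and 1.06 on slide 1, against 0.03 and -0.17 on slide 2, with the groups nearly level on the second slide. Ccl5, a T cell and NK cell product that attracts leukocytes, differed by 0.30 ± 0.51 (SE), and Ccl8, a further monocyte attractant, by -0.01 ± 0.37 (SE).

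**Figure D2:**
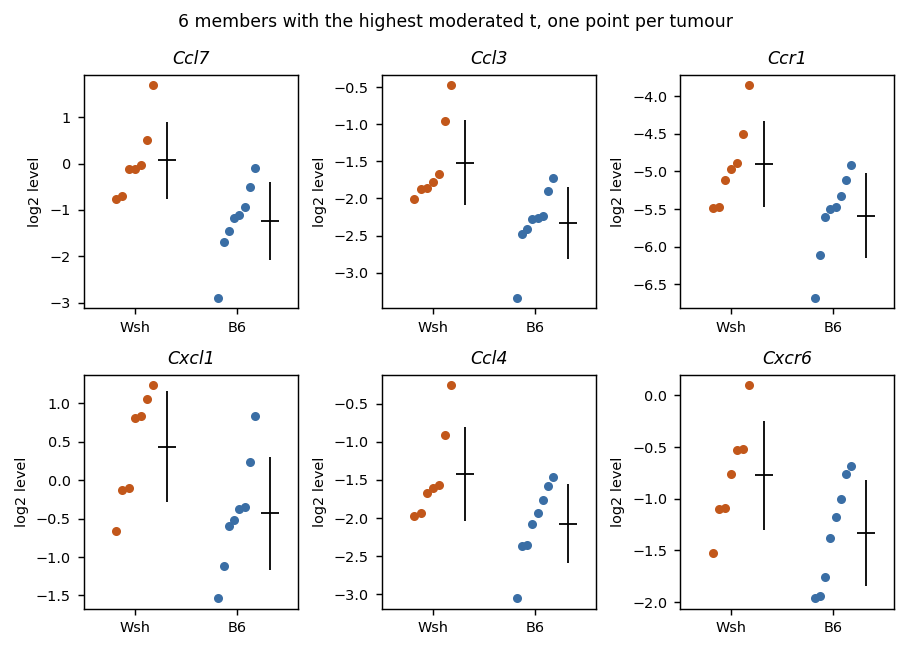
Log2 level of the 6 members with the highest moderated t, one point per tumour, Wsh at the left and B6 at the right of each panel, with the mean and SD as a bar beside the points. In each panel the Wsh mean is the higher and the 2 groups overlap.

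Neutrophil-attracting CXC chemokines act through Cxcr2. Cxcl1 lay between -0.66 and 1.23 with a median of 0.81 in Wsh tumours, and between -1.54 and 0.83 with a median of -0.45 in B6 tumours. Of the Wsh tumours 6 of 7 stood above the B6 median and 3 above every B6 tumour, and the difference was 0.86 ± 0.35 (SE; limma adjusted p = 0.404), with 0.96 on slide 1 and 0.82 on slide 2. Cxcl5, mainly an epithelial product, lay between -5.12 and 0.15 with a median of -3.50 in Wsh tumours, and between -6.6 and -2.17 with a median of -4.10 in B6 tumours, a difference of 1.07 ± 0.79 (SE). Wsh replicate 2 had by far the highest Cxcl5, and without it the difference was 0.53. The Cxcl5 probe was well above background on 6 of 7 Wsh and 5 of 8 B6 arrays. Cxcl2 was well above background on 1 Wsh and 0 B6 arrays and Cxcl3 on none, so the shared promoter motif shown above stands beside measured levels for Cxcl1 alone.

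The interferon-induced chemokines bind Cxcr3 on activated T and NK cells. Cxcl9 lay between -2.77 and 0.90 with a median of -0.69 in Wsh tumours, and between -2.58 and 0.06 with a median of -1.14 in B6 tumours. Cxcl10 lay between -1.48 and 1.23 with a median of 0.37 in Wsh tumours, and between -1.05 and 0.38 with a median of -0.08 in B6 tumours. Their differences were 0.51 ± 0.50 and 0.42 ± 0.35 (SE), positive on slide 1 (1.12 and 0.78) and negative on slide 2 (-0.30 and -0.11). Cxcl11 differed by -0.01 ± 0.11 (SE), and its values spanned 6.30 to 6.6 in Wsh tumours and 5.88 to 6.69 in B6 tumours. Another, dimmer probe of Cxcl11 differed by 0.27 and correlated with this one at -0.104. The signal can therefore not be read with confidence as the Cxcl11 level.

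Of the chemokines tied to type 2 responses and eosinophils, 4 of 6 were measured and 1 had a difference above 0, with a median of -0.22. Ccl11, the eosinophil attractant eotaxin, lay between -2.10 and 1.28 with a median of -0.79 in Wsh tumours, and between -1.82 and 1.46 with a median of -0.31 in B6 tumours, a difference of -0.27 ± 0.50 (SE). Ccl17, a Ccr4 ligand, differed by -0.17 ± 0.30 (SE), and Ccl1, a Ccr8 ligand, by -0.26 ± 0.46 (SE). Ccl24, a second eosinophil attractant, spread widely among the tumours of each background, between -4.36 and 0.77 in Wsh tumours and between -6.19 and 0.66 in B6 tumours. Its difference was 0.11 ± 0.99 (SE), with 1.0 on slide 1 and -1.05 on slide 2. Ccl22 and Ccl26 were each well above background on 1 Wsh and 0 B6 arrays.

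Lymphoid and homing chemokines organise T and B cells in lymphoid tissue, and 4 of 5 measured had a difference above 0, with a median of 0.75. Ccl19, a Ccr7 ligand, lay between -3.46 and 0.62 with a median of -1.89 in Wsh tumours, and between -5.54 and -0.54 with a median of -2.84 in B6 tumours, a difference of 1.35 ± 0.82 (SE; limma adjusted p = 0.616). Ccl21a, the other Ccr7 ligand, lay between 1.04 and 3.63 with a median of 1.35 in Wsh tumours, and between -0.88 and 2.44 with a median of 1.29 in B6 tumours. Its probe matches near-identical copies of the gene, so its signal cannot be assigned to a single copy. Cxcl13, which draws B cells through Cxcr5, lay between -3.62 and 1.42 with a median of -2.23 in Wsh tumours, and between -6.99 and 0.72 with a median of -2.11 in B6 tumours. The SE of their differences, 0.58 for Ccl21a and 1.17 for Cxcl13, was close to or above the differences of 0.75 and 0.99. For Ccl19, Ccl21a and Cxcl13 the differences were 0.90, 0.44 and 0.64 on slide 1, and 1.69, 1.01 and 1.28 on slide 2. With array weights they were 0.63, 0.15 and 0.01, and without the arrays high in skeletal muscle markers those of Ccl19 and Cxcl13 were 2.05 and 1.80. That last step left Wsh replicates 2, 6 and 7, all among the 8 arrays of high Cxcr5 listed below. The B6 arrays left included both high and low Cxcr5. Without Wsh replicate 1 the difference of Ccl21a was 0.42 and that of Cxcl13 0.51, and without B6 replicate 8 they were 0.50 and 0.65. Cxcl13 also gave 0.35 without B6 replicate 3 and 0.48 with either normexp correction or the B and plasma cell covariate. Cxcl12, the Cxcr4 ligand of stroma, differed by 0.17 ± 0.42 (SE) and Ccl25, a Ccr9 ligand, by -0.01 ± 0.19 (SE).

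Epithelial chemokines were split, with 3 of 6 measured above 0. Cxcl17, a mucosal chemokine, had the lowest moderated t of all members. It lay between -3.63 and -0.54 with a median of -1.99 in Wsh tumours, and between -2.23 and 0.79 with a median of -1.44 in B6 tumours. Of the Wsh tumours 6 of 7 stood below the B6 median, and the difference was -0.92 ± 0.47 (SE; limma adjusted p = 0.533), with -0.63 on slide 1 and -1.39 on slide 2. Cxcl15, known in mouse as lungkine, was dim, well above background on 3 of 7 Wsh and 7 of 8 B6 arrays, and its difference of -0.86 ± 0.67 (SE) was 0.50 on slide 1 and -2.44 on slide 2. Ccl20, the Ccr6 ligand, differed by 0.75 ± 0.72 (SE), with -0.14 on slide 1 and 1.73 on slide 2, and was well above background on 4 of 7 Wsh and 3 of 8 B6 arrays. Cxcl14, Ccl27a and Ccl28 differed by 0.04, 0.07 and -0.01, with the Ccl27a probe matching near-identical copies. The membrane-bound Cx3cl1 and Cxcl16 differed by 0.26 ± 0.27 and 0.19 ± 0.18 (SE), and Xcl1, the lymphotactin of T and NK cells, by 0.04 ± 0.31 (SE).

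Among the CC receptors 6 of 8 measured had a difference above 0, with a median of 0.53. Ccr1, a receptor of Ccl3 on myeloid cells, lay between -5.49 and -3.85 with a median of -4.97 in Wsh tumours, and between -6.68 and -4.91 with a median of -5.49 in B6 tumours. Its difference was 0.69 ± 0.28 (SE; limma adjusted p = 0.389), but its probe was well above background on only 4 of 7 Wsh and 3 of 8 B6 arrays. The difference of Ccr1 was 0.24 with normexp background correction and 0.25 on the deposited log2 values. Ccr2 averaged -0.39 ± 0.58 in Wsh tumours and -0.92 ± 0.79 in B6 tumours (SD, n = 7 and 8), and all 7 Wsh tumours lay above the B6 median. Its difference was 0.54 ± 0.34 (SE; limma adjusted p = 0.635).

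Ccr7, Ccr6 and Ccr9 varied more among tumours of a background than between backgrounds. Ccr7, which guides T cells and dendritic cells, lay between -2.74 and 2.13 with a median of 0.72 in Wsh tumours, and between -2.67 and 1.56 with a median of -1.03 in B6 tumours. Ccr6 lay between -5.26 and 1.4 with a median of -0.81 in Wsh tumours, and between -5.97 and -0.20 with a median of -2.47 in B6 tumours. Ccr9 lay between -7.37 and -2.97 with a median of -4.36 in Wsh tumours, and between -7.27 and -3.81 with a median of -6.06 in B6 tumours. The SE of each difference came near to or passed the difference itself, at 0.79 ± 0.82 for Ccr7, 1.17 ± 1.19 for Ccr6 and 0.52 ± 0.74 for Ccr9. On slide 1 these differences were 0.43, 0.36 and 0.25, and on slide 2 they were 1.12, 1.94 and 0.78. With array weights they were 0.13, 0.22 and -0.09, without Wsh replicate 1 they were 0.45, 0.67 and 0.14, and with the B and plasma cell covariate they were 0.40, 0.59 and 0.17. Without the arrays high in skeletal muscle markers, which left only Wsh arrays of high Cxcr5, they rose to 1.84, 2.93 and 1.46. Ccr3, the eotaxin receptor of eosinophils, differed by -0.30 ± 0.65 (SE), with a probe well above background on 2 of 7 Wsh and 5 of 8 B6 arrays, and Ccr8 by -0.13 ± 0.22 (SE).

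Cxcr6, the Cxcl16 receptor of T and NK cells, lay between -1.52 and 0.10 with a median of -0.76 in Wsh tumours, and between -1.96 and -0.68 with a median of -1.28 in B6 tumours. Of the Wsh tumours 6 of 7 lay above the B6 median, and the difference was 0.56 ± 0.25 (SE; limma adjusted p = 0.459), with 0.54 on slide 1 and 0.55 on slide 2. Cxcr3 lay between -2.81 and -0.09 with a median of -1.76 in Wsh tumours, and between -3.74 and -1.14 with a median of -1.97 in B6 tumours, a difference of 0.57 ± 0.44 (SE). Cx3cr1, the receptor of Cx3cl1 on monocytes and macrophages, differed by 0.29 ± 0.14 (SE). Cxcr4 differed by -0.04 ± 0.22 (SE), with -0.56 on slide 1 and 0.55 on slide 2. Ccr4, Ccr10, Cxcr1 and Cxcr2 were not measured, each well above background on at most 3 Wsh and 2 B6 arrays. Among the atypical receptors, Ackr1, a carrier on venules, differed by 0.38 ± 0.46, Ackr2, a scavenger of inflammatory CC chemokines, by -0.16 ± 0.45, Ackr3, a scavenger of Cxcl12, by -0.01 ± 0.20, and Ackr4, a scavenger of Ccl19 and Ccl21, by 0.04 ± 0.35 (SE).

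The spread within a background exceeded most of these differences. The pooled within-group SD of the members had a median of 0.78 log2, against 0.30 over all genes, and ran between 0.16 for Ccl27a and 3.1 for Cxcr5. Cxcr5, the B cell receptor of Cxcl13, lay between -7.98 and 0.07 with a median of -2.30 in Wsh tumours, and between -7.30 and -1.36 with a median of -4.04 in B6 tumours. Its values fell into 2 clusters, 8 arrays at -2.81 to 0.07 (Wsh replicates 1, 2, 6 and 7, and B6 replicates 1, 2, 4 and 7) and 7 arrays at -7.98 to -5.27. Ccr6 split the same way, with those 8 arrays at -1.34 to 1.4 and the other arrays at -5.97 to -3.21. The Cxcr5 probe was well above background on 4 of 7 Wsh and 5 of 8 B6 arrays, and that of Ccr6 on 6 of 7 and 5 of 8. Several of the low values therefore lie near background. Ccr7, Ccr9 and Ccl5 also had these 8 arrays as their highest.

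**Figure D3:**
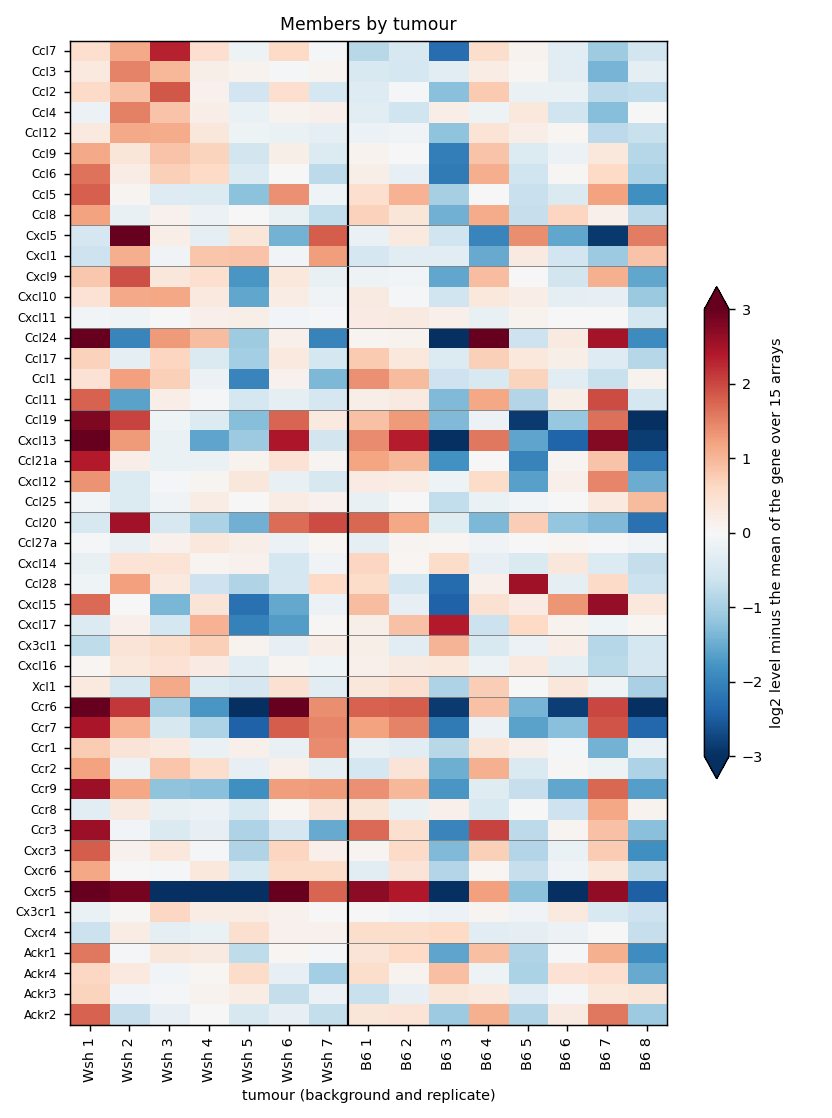
Log2 level of measured members in each tumour minus the mean of that gene over all 15 arrays, with Wsh tumours at the left of the line and B6 tumours at the right, and genes grouped by role. The same 8 tumours, which come from both backgrounds, are the highest for each of Ccr6, Ccr7, Ccr9 and Cxcr5.

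These clusters moved with lymphocyte and neutrophil markers. The mean level of 9 B and plasma cell markers, each centred on its own mean over the arrays, was 0.74 to 2.90 on the 8 arrays with high Cxcr5 and -2.29 to -1.21 on the others. T cell markers separated the same arrays, at -0.17 to 1.75 against -1.72 to -0.37. Neutrophil markers did so at -0.23 to 2.31 against -1.36 to -0.6. The clusters held 4 Wsh and 4 B6 arrays against 3 Wsh and 4 B6 arrays. In whole tumours, more cells of a type and more RNA per cell cannot be told apart.

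Cell type lists were also read beside the chemokine differences, with 48.2% of all genes above 0. Of 9 T cell markers measured 8 had a difference above 0 with a median of 0.68, and their mean ran between -1.25 and 1.75 in Wsh tumours and between -1.72 and 1.10 in B6 tumours. Of 8 NK and cytotoxic markers measured 7 were above 0 with a median of 0.43. Gzmk, a granzyme, passed the test with a difference of 1.42 (limma adjusted p = 0.0396). Its level was low, at a mean of -4.12 in Wsh tumours and -5.54 in B6 tumours. The mean of the NK and cytotoxic markers ran between -0.23 and 0.90 in Wsh tumours and between -1.31 and 0.33 in B6 tumours. Of 12 macrophage and monocyte markers 10 were above 0 with a median of 0.28, and their mean ran between -0.38 and 0.90 in Wsh tumours and between -0.93 and 0.78 in B6 tumours. Dendritic cell markers had 7 of 8 above 0 (median 0.38), neutrophil markers 5 of 7 (median 0.42), B and plasma cell markers 9 of 9 (median 0.31) and eosinophil markers 1 of 3 (median -0.02). Trac, Ncr1, Ngp, Prg2 and Epx, defining markers of these lists, were not measured. The part of these cell types in the chemokine differences was not tested.

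All 5 measured mast cell markers had a difference below 0 and 3 passed the test, Kit and the chymase genes Mcpt4 and Cma1. Their mean ran between -2.53 and -1.86 in Wsh tumours and between 0.02 and 3.58 in B6 tumours, so the groups did not overlap, while Tpsab1, Ms4a2, Mrgprb1 and Mrgprb2 were not measured. Skeletal muscle markers were high on 5 arrays, Wsh replicates 1, 3, 4 and 5 and B6 replicate 4, at a mean of 2.92 to 6.46, against -2.61 to -1.39 on the other arrays. Without these 5 arrays limma again called 0 members, 33 of 49 lay above 0, and 7 had an unadjusted p under 0.05 and were higher in Wsh tumours. The Wsh arrays left were replicates 2, 6 and 7, all among the 8 with high Cxcr5, whereas B6 arrays of both clusters remained.
Among 8 luminal epithelial markers 2 were above 0 (median -0.11), among 6 basal markers 4 (median 0.07) and among 8 fibroblast markers 2 (median -0.05). Blood endothelial markers had 4 of 7 above 0 (median 0.03), lymphatic endothelial markers 3 of 5 (median 0.19) and adipocyte markers 7 of 8 (median 0.85).

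**Figure D4:**
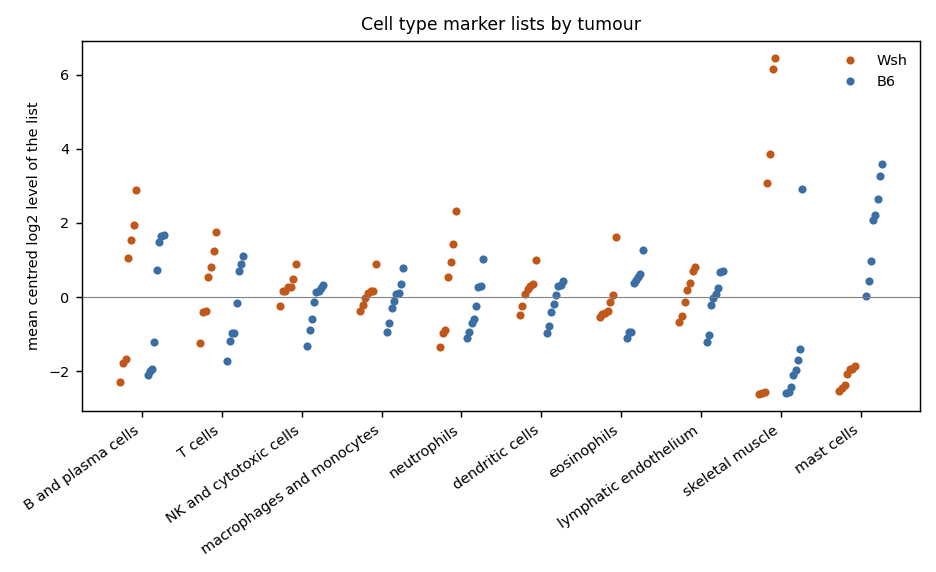
Mean log2 level of 10 cell type marker lists in each tumour, each gene first centred on its mean over the 15 arrays, with Wsh to the left of B6 in every list. B and plasma cell markers form 2 clusters in both backgrounds, and mast cell markers separate Wsh at -2.53 to -1.86 and B6 at 0.02 to 3.58.

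Ligands and their receptors were then compared across tumours, after each gene was centred on its group mean. Of 27 listed pairs 20 had both genes measured, and 18 were tested, since Ccr6 and Cxcr5 fell into clusters. In 7 pairs the correlation passed an adjusted p of 0.05 (100000 permutations within groups, two-sided, adjusted over the 18 pairs), all of them positive. The largest was Ccl19 with Ccr7, at Pearson's r = 0.92 and Spearman's rho = 0.94 over 15 tumours (permutation p = 2e-05, adjusted p = 0.00036, and for rho p = 1e-05, the smallest the permutations can give, adjusted p = 0.00018). It was 0.90 within Wsh tumours, 0.94 within B6 tumours, 0.97 on slide 1, 0.91 on slide 2 and 0.90 without the 2 arrays farthest from the Ccl19 median. Within the 8 arrays of high Cxcr5 r was 0.77, and within the other arrays 0.65.

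Ccl21a with Ccr7 gave r = 0.79 and rho = 0.81 (permutation adjusted p = 0.0126 and 0.00792), 0.61 within Wsh tumours, 0.92 within B6 tumours and 0.72 without the 2 farthest arrays. Ccl11 with its receptor Ccr3 gave r = 0.77 and rho = 0.74 (permutation adjusted p = 0.0126 and 0.0155), with 0.82 on slide 1, 0.86 on slide 2 and 0.69 without the 2 farthest arrays. The Ccr3 probe was not well above background on 5 Wsh and 3 B6 arrays, so about as many of the Ccr3 values in this pair lie near background as above it. Ccl2 with Ccr2 gave r = 0.72 and rho = 0.73 (permutation adjusted p = 0.0126 and 0.0155), with 0.57 within Wsh tumours, 0.92 within B6 tumours and 0.68 without the 2 farthest arrays. These pairs passed by both measures.

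Other pairs past the threshold held less evenly. Cxcl9 with Cxcr3 gave r = 0.72 (permutation adjusted p = 0.0184) but rho = 0.59 (adjusted p = 0.0794), with 0.82 without the 2 farthest arrays, and r was 0.18 within the arrays of high Cxcr5 against 0.80 within the others. Ccl7 with Ccr2 gave r = 0.64 (permutation adjusted p = 0.0334) but rho = 0.54 (adjusted p = 0.103), with 0.68 on slide 1, 0.16 on slide 2 and 0.48 without the 2 farthest arrays. With the slide means also removed 4 pairs passed, and 4 passed without Wsh replicate 5 or without B6 replicate 4.

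The other pairs did not pass. Among them Cxcl10 with Cxcr3 gave r = 0.55 (permutation adjusted p = 0.0766), Cx3cl1 with Cx3cr1 0.51, Ccl3 with Ccr1 0.45, Cxcl12 with Cxcr4 0.12, Cxcl16 with Cxcr6 -0.15 and Ccl8 with Ccr8 -0.35. For the clustered receptors r was read within clusters without a test. Cxcl13 with Cxcr5 gave r = 0.66 in the 8 high arrays and -0.13 in the 7 low ones, and Ccl20 with Ccr6 gave 0.05 in the high and 0.75 in the low arrays. Cxcr5 was well above background on 4 of 7 Wsh and 5 of 8 B6 arrays, and Ccl20 on 4 of 7 and 3 of 8. Several values in the low arrays therefore lie near background. The B and plasma cell, T cell and neutrophil lists all had the 8 arrays of high Cxcr5 as their highest. These arrays were also the highest for Ccr7, and the part of the lists in the correlations was not tested.

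**Figure D5:**
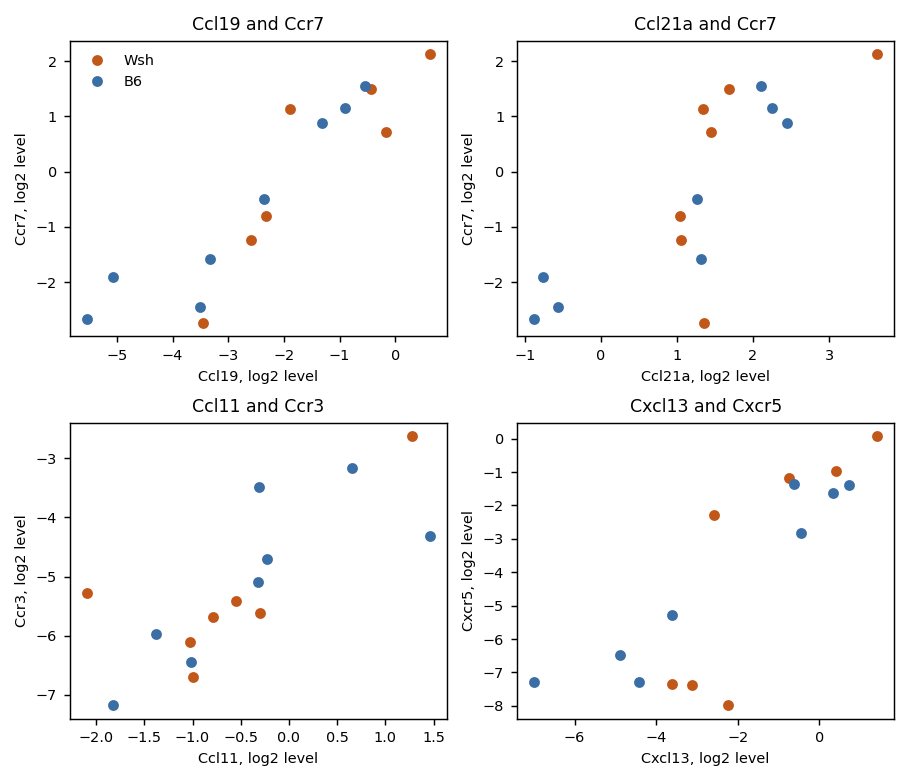
Receptor level against ligand level (both log2) in the 15 tumours, orange for Wsh and blue for B6, for Ccl19 and Ccr7, Ccl21a and Ccr7, Ccl11 and Ccr3, and Cxcl13 and Cxcr5. The first 3 pairs follow a trend in both backgrounds (r = 0.92, 0.79 and 0.77), whereas Cxcr5 forms 2 clusters.

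Genes of receptor signalling outside the family were counted in the same fit. Of 26 signalling genes 20 had a difference above 0 with a median of 0.24, and limma called 0 of them, with 8 at an unadjusted p under 0.05, all higher in Wsh tumours. Over all genes 48.2% lay above 0, 0.336% were called and 4.66% were higher at an unadjusted limma p under 0.05. Rgs16, which shortens G protein signals, differed by 0.67 ± 0.21 (SE; limma adjusted p = 0.243). Vav1 and Dock2, activators of Rac in blood cells, differed by 0.53 ± 0.20 and 1.08 ± 0.49 (SE). The gamma-type lipid kinase genes Pik3cg and Pik3r5 differed by 0.64 ± 0.26 and 0.95 ± 0.42 (SE), Pik3cd by 0.74 ± 0.29 (SE) and Arrb2, an arrestin that ends receptor signals, by 0.37 ± 0.15 (SE). The G protein subunits of the list were nearer 0 than these genes, at 0.07 ± 0.16 for Gnai2 and -0.18 ± 0.14 for Gnai3 (SE). Gnb1, Gnb2 and Gng2 differed by -0.01 ± 0.09, -0.05 ± 0.11 and -0.07 ± 0.19 (SE).

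Of 11 NF-kB factors and feedback genes 9 had a difference above 0, with a median of 0.11, and limma called 0, with Nfkbiz alone at an unadjusted p under 0.05 (0.45 ± 0.17, SE). Rela and Nfkb1, the main activating subunits, differed by 0.07 and 0.10. Of 6 measured chemokine system genes outside the naming rule 4 were above 0 and limma called 0, with 0 at an unadjusted p under 0.05. They included the platelet chemokines Pf4 and Ppbp at 0.38 and 0.41, and Dpp4, a protease that trims chemokines, at -0.50 ± 0.25 (SE; limma adjusted p = 0.509).

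Kit and 8 measured members lie on chromosome 5, where the Wsh inversion is. In the files' build mm9 the Kit probe is at 76052394 to 76052453 and the probes of the members span 91190490 to 136046544. Of these 8, 6 had a difference above 0, with a median of 0.47 and a lowest limma adjusted p of 0.404, that of Cxcl1 (probe at 91322080 to 91322139). The 13 measured members of chromosome 11 include the inflammatory CC chemokines, with the Ccl7 probe at 81860656 to 81860715 and the Ccl3 probe at 83461358 to 83461417.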

How the data were processed

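Cy3-labelled RNA amplified from each tumour was hybridised to a 1-colour Agilent array, per the labels' protocols. The deposited spot intensity values came from Agilent Feature Extraction 10.7.3.1, per the file headers. The processed intensity is background-subtracted and detrended, not normalized between arrays, per the file headers. limma is also named in the submitters' processing notes. The authors also deposited log2 values, whose normalization is not given in the sources used here; they served as an alternative.

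Here log2 processed intensity minus each array's 75th percentile was used. Spots flagged as outliers were dropped, repeated spots averaged, and a probe was kept if 7 or more of the 15 arrays had it well above background (34346 probes). Each gene was its kept probe of highest mean. Symbols came from RefSeq names and coordinates from the files (mm9). The contrast of Wsh with B6 was fitted in limma 3.58.1 under R 4.3.3 (two-sided, Benjamini-Hochberg over 22342 genes, threshold 0.05). Figures were drawn with matplotlib 3.10.9. Of 1215 member spot measurements, 144 were surrogate values set at low signal, 0 were flagged and 0 saturated. The number of arrays limits the precision.

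The members and all lists were chosen with earlier results of these data known. Levels or differences are given for the 6 members of highest and the 6 of lowest moderated t, the 8 of largest within-group SD, those of chromosome 5, those detected in 1 group only, and the 4 pairs of largest r. A gene was called clustered at a gap of at least 1.5 log2 with at least 4 arrays on each side. A simulation of this comparison over 22342 genes shifted 100 of them by 2 and another 100 by 1 on the log2 scale. It picked up 95% of the larger shifts and 74% of the smaller ones, and called 0.0361% of the unshifted genes. These shares are for genes at large, whose median pooled within-group SD was 0.30, against 0.78 for the members. They therefore do not measure how often a member with such a shift would be called. Same-numbered arrays correlated between -0.242 and 0.211, which shows no pairing by number but cannot exclude one. The labels name no pairing, and the arrays were treated as unpaired. Values of some genes are not reported here, although counts over members, pairs and lists include them.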

Additional observations from a re-analysis of the deposited data

Results flagged for a closer look

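Among 52 groups of values tested for a sample far from the others, 3 had one, and chance marks about 1 group in 20. Ccl21a in Wsh tumours was 3.63 in replicate 1, with the nearest other Wsh tumour at 1.68. Ccr3 in Wsh tumours was -2.63 in replicate 1, with the nearest at -5.27. Ccl3 in B6 tumours was -3.34 in replicate 7, with the nearest at -2.47. Wsh replicate 1 was also the highest Wsh tumour in most marker lists, immune and stromal alike, with 2.90 for B and plasma cells, 2.31 for neutrophils, 1.75 for T cells, 1.62 for eosinophils, 0.90 for macrophages and for NK cells, 0.83 for fibroblasts, 0.82 for lymphatic endothelium, 0.81 for blood endothelium and 2.11 for adipocytes. It was also the highest in dendritic cell markers and the lowest in luminal epithelial markers, at -0.53. Whether this tissue content accounts for its values was not tested.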

How the results depend on the processing

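Under all 30 alternatives limma called 0 members, and 26 (of 35 measured under the filter on all 15 arrays) to 42 (of 57 without a filter) lay above 0. The median member difference ran between 0.13 (array weights) and 0.36, and between 0.20 and 0.55 with each array left out. The count of 75 genes was 25 without a filter, 4 on slide 1 alone, 1 on slide 2 alone, 15 with the replicate block, 153 with array weights and 24 when the 5 arrays high in skeletal muscle markers were dropped, a setting chosen after seeing the data, like the B and plasma cell covariate. With each array left out it ran between 25 and 76, and it was within 1.5 times of 75 only without Wsh replicate 1 (52), Wsh replicate 5 (51) or B6 replicate 7 (76). The number of ligand and receptor pairs was 4 with slide means removed and between 4 and 8 with each array left out. The labels name no pairing by replicate number, and with that number as a block 31 members lay above 0. Cxcl9, Cxcl10 and Ccr9 turned negative, and Cxcl15 and Ccl11 positive, under 1 setting each, Ccl1 and Ccr8 changed sign under 2, Cxcr5 under 10, and Ccl24 and Cxcl11 under 12, none of them called. The cause of these shifts was not tested. Dim members (Ccr1, Ccr3, Ccr6, Ccr8, Ccr9, Ccl1, Ccl20, Ccl28, Cxcl5, Cxcl15, Cxcr5) lie near background on several arrays, which limits their differences.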

Other observations

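Probes of a gene did not always move together across the 15 arrays. The 2 Ccr7 probes correlated at 0.995 and the 2 Cxcr6 probes at 0.985, whereas the 2 Cxcl11 probes gave -0.104, the 2 Cxcr4 probes 0.273 and the 2 Cxcl16 probes 0.448. Of 15 probe pairs from 13 genes, 8 correlated above 0.8. The dimmer Cxcl11 probe differed by 0.27 between Wsh and B6 tumours and the brighter one by -0.01, and the 2 Cxcr4 probes by -0.26 and -0.04.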
